A study of Mus musculus with 27 samples.

Results

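Promoter nucleosomes of induced pluripotent stem cells (iPSCs) were compared with those of mouse embryonic fibroblasts (MEFs), the cells from which the iPSCs were made, in 4 of the 27 libraries of the series. These are 2 H3 libraries of each cell type, made by digesting chromatin with micrococcal nuclease (MNase), precipitating mononucleosomes with an antibody to total histone H3 and sequencing them. For each of 20156 transcription start sites (TSSs) the reads of called nucleosomes with a centre (dyad) from -150 to 50 bp were summed, and the sum per bp was divided by that in the stretch from 2 to 1 kb upstream, the flank. This quotient is called the depleted-region level: below 1 the region holds fewer nucleosome reads than its flank. A promoter was called opened when both iPSC libraries lay below both MEF libraries, that is in the same direction in all 4 library pairs, and closed when both lay above. Of the 20156 start sites, 7628 had a mean of at least 5 reads in the depleted region and 10 in the flank over the 4 libraries and could be judged, and 12528 could not. Among the 7628, 691 were opened (9.06%), 1902 were closed (24.9%), and in 5035 the 2 cell types overlapped. With 2 libraries against 2, orders that separate the cell types arise often without any difference between them. If all orders were equally likely, the share meeting the rule in either direction would be 0.33. Meeting the rule therefore describes a promoter and is no evidence of a change.

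The MEFs are labelled as coming from e13.5 embryos with a single copy of an Oct4-GFP transgenic allele and of a Rosa26 allele, and were kept for at most 3 passages before RNA-seq. An excess of reads around Pou5f1, the gene of Oct4, was found in the H3 libraries other than MEF replicate 2, and whether that library carried the transgene was not tested. The genetic background is labelled CBA/CaJ and C57BL/6J, for the replicate 1 libraries only, and the methods of the study add 129Sv/Jae mothers. The iPSCs were made from such fibroblasts with retroviruses for the Yamanaka factors by way of stable pre-iPSC clones, were kept for 6 passages before RNA-seq, and grew with serum and leukaemia inhibitory factor on feeder layers of inactivated MEFs. The share of feeder cells and the clone behind each library are not given in the sources used here. MEFs and iPSCs were digested with different amounts of MNase for different times, so digestion and cell type cannot be told apart, in single promoters or in groups of them. In bulk samples like these, fewer cells that carry a nucleosome and a weaker signal per cell cannot be told apart either.

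Active promoters are known to keep a short stretch just upstream of the TSS free of stable nucleosomes. General transcription factors and RNA polymerase II assemble there, the nucleosome downstream of the start (+1) is well placed, and silent tissue-specific promoters, most of all those poor in CpG, are usually covered. Reprogramming turns off the fibroblast programme of collagens, matrix proteins and contractile proteins, and turns on pluripotency, epithelial and some germline genes.

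The sequence just upstream of the TSS is shown for 5 promoters on which the gene results turn, 2 opened promoters of pluripotency genes and 3 closed promoters of fibroblast genes. Each run holds the 150 bases before the start, 5′ to 3′ on the strand of the gene, from the mm9 genome. Capitals mark a TATA box (TATAAA), an octamer (ATGCAAAT), a CCAAT box (CCAAT) or a GC box (GGGCGG) on either strand, and none of the 4 motifs contains another. Zfp42 lies on the minus strand at chr8:44392364-44392513 and Nr0b1 on the plus strand at chrX:83436964-83437113. Col1a1 lies on the plus strand at chr11:94797434-94797583, Col1a2 on the plus strand at chr6:4455547-4455696 and Tgfbi on the plus strand at chr13:56710814-56710963. The starts of Nr0b1 and Col1a1 in the expression table are not annotated transcript starts of GENCODE, and those of the other 3 are.
Zfp42: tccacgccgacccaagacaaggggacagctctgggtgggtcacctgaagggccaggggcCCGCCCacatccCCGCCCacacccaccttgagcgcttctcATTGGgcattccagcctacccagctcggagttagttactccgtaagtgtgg
Nr0b1: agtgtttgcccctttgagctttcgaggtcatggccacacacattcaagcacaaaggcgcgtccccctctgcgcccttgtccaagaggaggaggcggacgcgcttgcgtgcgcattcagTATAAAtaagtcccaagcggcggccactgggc
Col1a1: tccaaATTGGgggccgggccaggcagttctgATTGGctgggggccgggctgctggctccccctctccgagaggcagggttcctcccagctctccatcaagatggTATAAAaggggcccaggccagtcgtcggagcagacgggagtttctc
Col1a2: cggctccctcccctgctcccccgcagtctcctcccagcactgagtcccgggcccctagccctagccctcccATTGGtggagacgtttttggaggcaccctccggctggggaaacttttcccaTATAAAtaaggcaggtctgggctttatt
Tgfbi: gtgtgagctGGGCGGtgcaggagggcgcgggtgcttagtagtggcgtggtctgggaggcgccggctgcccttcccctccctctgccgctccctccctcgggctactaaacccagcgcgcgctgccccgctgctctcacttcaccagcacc
The Zfp42 run holds 2 GC boxes and 1 CCAAT box and that of Nr0b1 a TATA box. Both type I collagen genes hold a TATA box, in Col1a2 together with 1 and in Col1a1 with 2 CCAAT boxes, and Tgfbi holds a GC box. Among 20155 start sites with sequence, 7.65% held the TATA box, 1.05% the octamer, 26.6% the CCAAT box and 40.8% the GC box. Among the 7628 promoters with enough reads, from which opened and closed ones were drawn, the shares were 10.2%, 0.97%, 20.8% and 25.8%. Among opened promoters these shares were 14.5%, 1.59%, 25.2% and 14.2%, and among closed promoters 8.52%, 0.578%, 18.9% and 30.7%. A match of letters is a description of the window and no evidence of a bound factor.

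The calls of the 4 H3 libraries held 67414592 and 82775565 reads in MEFs and 94092528 and 69025112 reads in iPSCs (replicates 1 and 2). Spread over all start sites this left a median of 1 to 3 reads in the depleted region and 26 to 42 in the flank, and 36.3 to 40.03% of start sites had no read in the depleted region of a library. In the 7628 promoters the reads of a library came from 1 called nucleosome in 79.2 to 86.3% of cases, so the level of a promoter mostly rests on the reads of 1 call, and 6.61 to 14.7% of promoters had none. Of the 4 H3 libraries iPSC replicate 1 stood apart. Its median log2 level over the 7628 promoters was 0.69, against -0.05 in iPSC replicate 2 and -0.08 and -0.01 in MEFs. Pre-iPSC replicate 1, outside the comparison, was high too, with a median of 0.88 against -0.22 in pre-iPSC replicate 2. The median difference between cell types was 0.36 on the log2 scale, with pairs of libraries from -0.04 to 0.76, so it was not larger than the spread between the iPSC libraries. The levels of the 7628 promoters were also poorly repeated, with Pearson correlations across promoters of 0.198 between MEF replicates and -0.045 between iPSC replicates (0.458 and 0.457 over all 20156). The 7628 were chosen on the mean of the same reads over the 4 libraries, which by itself lowers such correlations. The same choice lets a promoter pass through its reads in iPSC replicate 1 and so favours closed promoters. The correlations are descriptions, since promoters share their library and their base composition.

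**Figure D1:**
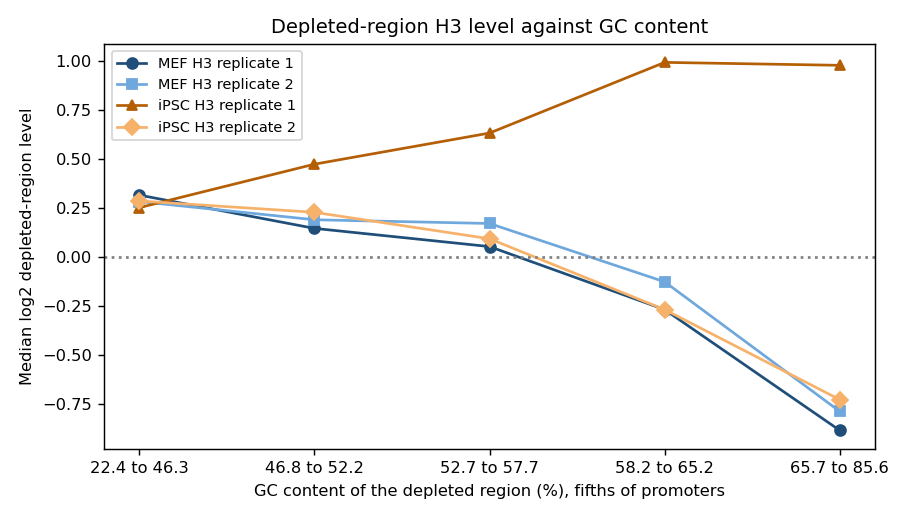
Median log2 depleted-region level (y axis) of the 7628 promoters in 5 classes of GC content of the depleted region (x axis, %), with 1 line for each H3 library. In iPSC replicate 1 the median rose from 0.25 in the class of lowest GC to 0.98 in that of highest GC, while it fell in the other 3 libraries to values between -0.89 and -0.73.

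The distance of iPSC replicate 1 from the others grew with GC content. In the class with the least GC (22.4 to 46.3%) all 4 medians lay between 0.251 and 0.315. In the class with the most (65.7 to 85.6%) that library stood at 0.98 and the others between -0.89 and -0.73. The +1 window from 51 to 250 bp behaved alike, with a level of 1.78 in iPSC replicate 1 and 0.581 or 0.582 in the other 3 libraries for genes whose expression was not called changed. For the same genes it was 2.26 in pre-iPSC replicate 1 and 0.438 in pre-iPSC replicate 2. Without iPSC replicate 1, 2539 promoters were opened and 2539 closed, and without iPSC replicate 2, 1379 and 4714. With each library centred on its median, 1284 promoters were opened and 1367 closed, and with the levels corrected for GC content 1278 and 1368. Both steps subtract library medians, the second within classes of GC content, and so by themselves bring the counts near balance. Of the promoters opened and closed without correction, 645 and 1299 were still opened and closed after the GC correction. The counts of opened and closed promoters are therefore read in no direction for the genome as a whole, and values of iPSC replicate 2 are given throughout beside those of replicate 1.

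The clearest difference between the cell types was in groups of genes defined by expression, which the rule did not use. By limma on log2(FPKM + 1), 1279 of 12401 genes tested (10.3%) were higher in iPSCs and 1927 (15.5%) lower, at an adjusted p below 0.05 and at least 2-fold. In MEFs the promoters of genes higher in iPSCs were the fuller of the 2 groups, with depleted-region levels of 0.562 and 0.604, and those of genes lower in iPSCs the emptier, with 0.366 and 0.413. In iPSC replicate 2 the first group stood at 0.449 and the second at 0.429, and in iPSC replicate 1 at 0.871 and 0.890. The quotient of the 2 levels, formed within a library and therefore free of a factor common to both groups, was 1.54 and 1.46 in MEFs and 0.979 and 1.05 in iPSCs, or 1.5 ± 0.0509 against 1.01 ± 0.0471 (SD, n = 2 libraries each). An effect of digestion that differs between the 2 groups would remain in this quotient. The cell types did not overlap in it, but with 2 libraries against 2 no two-sided p under 0.33 is possible in an exact permutation test. The difference of the means, iPSC minus MEF, was -0.488, and it shrank to -0.304 with a flank from 1 to 2 kb downstream. In the 2 pre-iPSC libraries, not used to define anything here, the quotient was 1.28 and 1.30, between the values of MEFs and iPSCs.

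**Figure D2:**
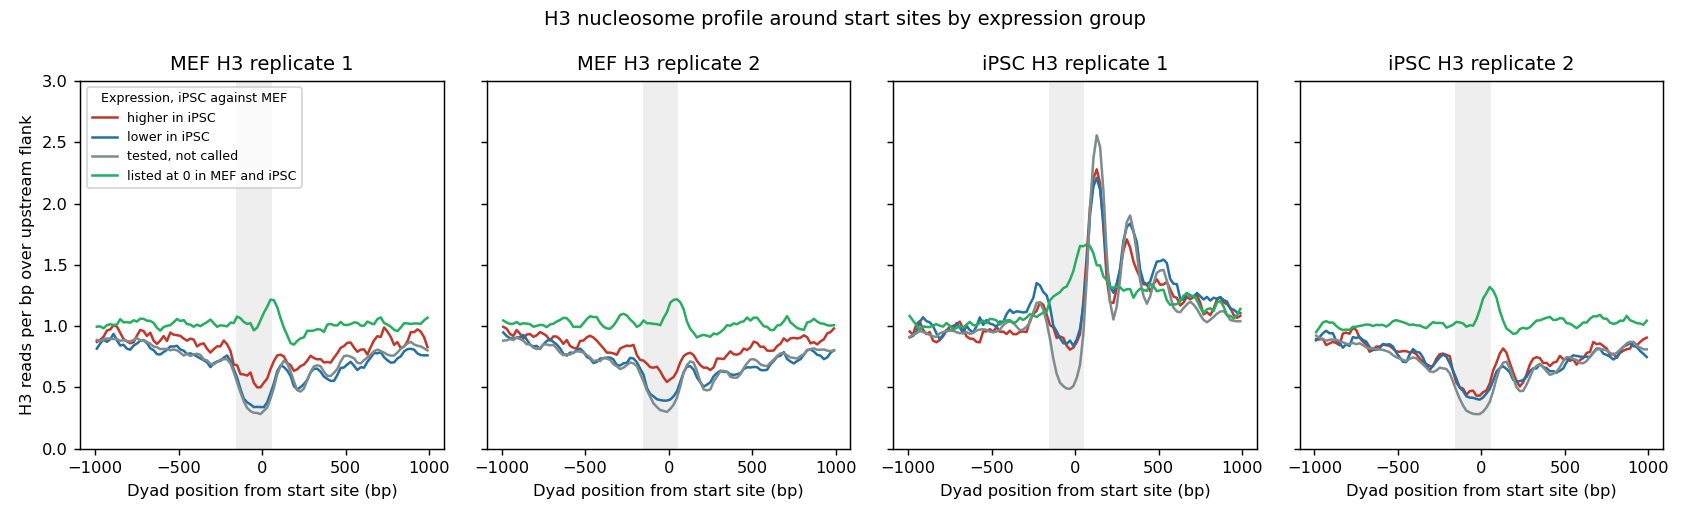
H3 reads per bp over the mean of the upstream flank (y axis) in 20-bp bins of dyad position from the start site (x axis, bp), averaged over 5 bins, for 4 groups of genes in each H3 library, with the depleted region shaded. In both MEF libraries the genes higher in iPSCs lie above the genes lower in iPSCs within the shaded region, and in both iPSC libraries the 2 lines nearly meet, while iPSC replicate 1 shows far higher peaks downstream of the start.

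Set against the 9195 genes tested but not called in the same library, the genes lower in iPSCs had 1.14 and 1.17 times their level in MEFs and 1.61 and 1.39 times in iPSCs. The genes higher in iPSCs had 1.75 and 1.71 times that level in MEFs and 1.58 and 1.45 times in iPSCs. Both groups thus moved relative to the genes not called, without overlap between the cell types, and in opposite directions. The 3593 genes listed at 0 FPKM in both cell types stayed filled, with levels of 1.05 and 1.08 in MEFs and 1.38 and 1.10 in iPSCs.

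Since iPSC replicate 1 depends on base composition, the comparison was repeated within promoters rich in CpG (at least 50% GC and an observed over expected CpG of at least 0.6 within 500 bp) and within the rest. Among CpG-rich promoters the quotient of genes higher over genes lower was 1.3 and 1.18 in MEFs and 0.862 and 0.876 in iPSCs (733 and 1236 genes). Among CpG-poor promoters it was 1.53 and 1.52 against 0.983 and 1.06 (546 and 691 genes). Relative to uncalled genes of the same class, the CpG-rich genes higher in iPSCs overlapped between the cell types (1.49 and 1.33 against 1.44 and 1.20), whereas their CpG-poor counterparts did not (1.43 and 1.54 against 1.33 and 1.21). Genes lower in iPSCs were above both MEF libraries in both iPSC libraries in either class, at 1.15 and 1.13 against 1.67 and 1.37 in CpG-rich and 0.935 and 1.01 against 1.35 and 1.14 in CpG-poor promoters.

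**Figure D3:**
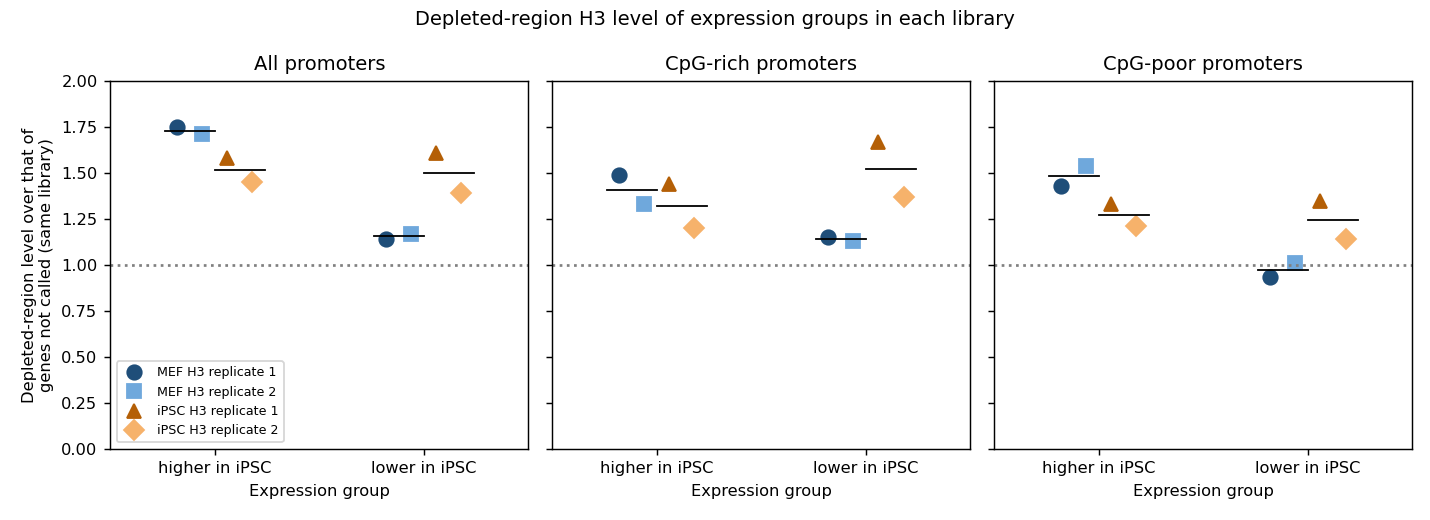
Depleted-region level of genes higher or lower in iPSCs divided by that of genes not called in the same library (y axis, 1 means equal), for all, CpG-rich and CpG-poor promoters. Points are the 4 H3 libraries and bars the mean of each cell type. Genes lower in iPSCs lie higher in both iPSC libraries than in both MEF libraries in all 3 panels, and genes higher in iPSCs lie lower in both iPSC libraries in the first and the third.

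Read from the side of the rule, opened promoters belonged more often to genes that rose in expression and closed promoters more often to genes that fell. Of the 691 opened promoters 203 had a gene tested for expression, of which 61 were called higher (30.0%) and 24 lower (11.8%), and the median change was 0.53 on the log2 scale. Of the 1902 closed promoters 812 had one, of which 98 were called higher (12.1%) and 217 lower (26.7%), with a median of -0.37. Over all 2921 tested genes among the 7628 promoters the shares were 16.4% and 22.4% and the median -0.13. With a smallest difference of at least 2-fold between any pair of libraries, 104 promoters were opened (1.36%) and 404 closed (5.3%). Among the 36 tested genes of these opened promoters 15 were higher and 2 lower (41.7% and 5.56%, median 0.89), and among the 208 of the closed ones 23 were higher and 72 lower (11.1% and 34.6%, median -0.64). The 2-fold counts depended on the reads added before division. With 5 added to the depleted region and 25 to the flank, instead of 1 and 5, they were 40 opened and 121 closed.

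**Figure D4:**
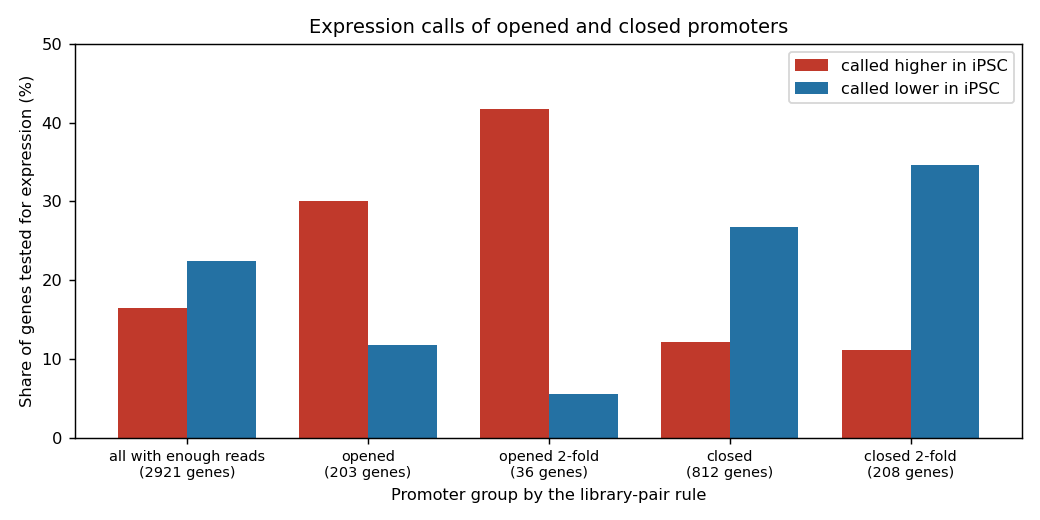
Share of genes tested for expression (y axis, %) that were called higher or lower in iPSCs than in MEFs, among all promoters with enough reads and among opened and closed promoters (x axis, number of genes in brackets). The share called higher is 30.0% among opened and 12.1% among closed promoters, and the share called lower is 11.8% and 26.7%.

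These shares depended on the library at the opened promoters. Chosen without iPSC replicate 1, opened promoters had 21.5% of their 1014 tested genes called higher and 18.5% lower, and closed promoters 12.5% and 26.3% of 952. After the GC correction the opened promoters stood at 24.6% and 15.4% and the closed ones at 10.7% and 29.0%. Within CpG-poor promoters 33.8% of opened and 15.7% of closed genes tested were higher (19.2% of all in the class), and 8.44% and 26.8% were lower (22.1% of all). Within CpG-rich promoters 18.4% of the 49 opened and 7.67% of the closed were higher (12.4% of all), and 22.4% and 26.6% were lower (22.8% of all). The pre-iPSC libraries, which the rule did not use, had median log2 levels of -0.01 and 0.02 at opened promoters and 1.20 and -0.33 at closed ones, against 0.88 and -0.22 over all 7628, so that opened promoters lay below closed ones in replicate 1 and above them in replicate 2.

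Single promoters did not pass a test. The edgeR quasi-likelihood fit of depleted-region reads relative to flank reads called 0 of 7628 higher and 0 lower (0.0%), with 225 at an unadjusted p below 0.05 and a smallest adjusted p of 0.998, and DESeq2 called 0, with 257 at an unadjusted p below 0.05. At the spread between these libraries the test could call hardly any promoter. The values of single genes below are therefore descriptions of 4 libraries, in the order MEF replicates 1 and 2 and iPSC replicates 1 and 2. The rule has no minimum difference. Trpv3 was just opened with log2 levels of -0.20, 1.70, -0.20 and -0.37, and 1700013G24Rik just missed with 1.20, 1.86, 1.20 and -0.73. Cxcr1 was just closed with 0.35, 0.02, 2.24 and 0.36, and Ces2g just missed with 0.40, 0.44, 0.58 and 0.44.

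Of 39 pluripotency genes listed, 37 were called higher in iPSCs and none lower (median log2 change 5.13). This list and the others were chosen with earlier results of these data known, so their expression counts are descriptions. Only 16 of the 39 had enough reads, of which 5 were opened and 4 closed (9.06% and 24.9% of all 7628). Sall4, a zinc finger factor of embryonic stem cell self-renewal, was opened by the widest margin of the list (1.97 on the log2 scale between the closest libraries), with 10, 11, 3 and 1 reads in the depleted region and 34, 41, 55 and 33 in the flank, or levels of 1.4, 1.3, 0.332 and 0.262. Its largest call lay between -121 and -103 bp in every library, so the same position lost reads. H3K27me3 around this start fell from 23 and 17 reads to 2 and 0 (edgeR adjusted p 0.019), while DESeq2 called 0 of the 3680 promoters tested for this mark in either direction. Sall4 was listed at 0 FPKM in both MEF libraries and at 94.3 and 62.2 in iPSCs (log2 change 6.28, SE 0.39, limma adjusted p 0.00041).

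Zfp42, also known as Rex1 and a marker of naive pluripotency, had 5, 12, 3 and 1 reads in the depleted region and 19, 20, 32 and 19 in the flank. Its levels of 1.24 and 2.59 in MEFs fell to 0.538 and 0.415 in iPSCs, and its FPKM went from 0 and 0 to 55.9 and 63.9 (log2 change 5.93, adjusted p 0.00041). Its call lay at -111 and -109 bp in MEFs and at -30 and -10 bp in iPSCs, and from -100 to 0 bp the reads were 0, 0, 3 and 1. The few iPSC reads at Zfp42 thus stood nearer to the TSS than the MEF reads. Nr0b1, an orphan nuclear receptor of the pluripotency network, had 6, 13, 0 and 2 reads and levels of 1.58, 1.62, 0.226 and 0.711.

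Lefty1, an inhibitor of Nodal signalling, had 10, 19, 15 and 6 reads and levels of 1.56, 2.12, 1.05 and 0.810, but in the narrower window from -100 to 0 bp it held 0, 0, 15 and 6 reads, the opposite order. Tdh, the threonine dehydrogenase of mouse stem cells, was opened by only 0.04 on the log2 scale. Sox2, a core pluripotency factor, had 8, 5, 3 and 0 reads with levels of 1.32, 0.853, 0.524 and 0.276, both iPSC libraries lowest, but missed the minimum of reads. Nanog had levels of 1.39, 1.54, 0.526 and 1.61 and overlapped, as did Dppa3 with 1.05, 0.757, 0.134 and 0.807.

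The 4 closed pluripotency genes were called higher in expression all the same, Nodal and Lin28b not without iPSC replicate 2. Their closing was lost at Pou5f1 with the downstream flank or the GC correction, at Lin28b with centring and at Nodal from -100 to 0 bp. Nodal, a ligand of the TGF-beta family, had 5, 6, 12 and 10 reads (levels 0.711, 0.580, 1.47 and 4.21) and Lefty2, its antagonist, 0, 6, 20 and 8 (0.155, 0.849, 1.83 and 1.60), while their FPKM rose from 0 in both MEF libraries to 39.1 and 34.4 and to 26.3 and 43.7. Lin28b, which blocks let-7 maturation, had levels of 1.24, 0.971, 1.51 and 2.74. Pou5f1, which encodes Oct4, could not be read as 1 locus. Its upstream flank held 410, 48, 573 and 324 reads, or 15.8, 1.55, 13.6 and 11.2 times the median of all start sites in the same library. The labels give an Oct4-GFP transgene in these cells, and its part in this excess was not tested. Summed over all 39 genes, the depleted-region level was 0.679 and 0.770 in MEFs and 0.986 and 0.718 in iPSCs, and relative to uncalled genes 2.11 and 2.18 against 1.79 and 2.32, so the cell types overlapped on both scales. Without Pou5f1 the level was 0.603 and 0.797 against 0.759 and 0.645, and the relative level 1.88 and 2.26 against 1.38 and 2.08, and they overlapped as well. Over the 37 genes called higher, Pou5f1 included, the level overlapped, at 0.698 and 0.769 against 1.00 and 0.665. Their relative level was 2.17 and 2.18 against 1.81 and 2.15, narrowly lower in both iPSC libraries.

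Promoters of fibroblast and mesenchymal genes were fuller in iPSCs as a group. Of 40 listed, 36 were called lower in iPSCs and 1 higher (median log2 change -3.53), and of 21 with enough reads 8 were closed and 1 opened (24.9% and 9.06% of all 7628). The closed ones include Col1a2, Col6a2, Tgfbi, Thbs1 and Loxl1, which had no read in either MEF library and were kept through their iPSC reads, so the count is a description only. Over all 40 promoters, with no minimum of reads, the level was 0.403 and 0.387 in MEFs and 1.02 and 0.673 in iPSCs. Relative to uncalled genes of the same library this was 1.25 and 1.10 against 1.85 and 2.18, and the cell types did not overlap on either scale. This was not particular to the fibroblast list, since the macrophage and endothelial markers described below had a higher relative level in both iPSC libraries too.

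Col1a2, 1 of the chains of type I collagen, had no read in the depleted region of either MEF library and 25 and 9 in iPSCs, with 12, 11, 18 and 13 in the flank. The iPSC calls lay at -98 and -97 bp, within the 150 bases shown above. Col1a2 FPKM was 1206 and 1761 in MEFs and 41.4 and 54.8 in iPSCs (log2 change -4.91, SE 0.56, limma adjusted p 0.0017). Its partner chain Col1a1 had 0, 2, 31 and 11 reads and levels of 0.184, 0.403, 1.99 and 1.01. Here the iPSC calls lay at 35 and 24 bp, just downstream of the start. From -100 to 0 bp the reads of Col1a1 were 0, 2, 0 and 0, too few to be judged. Its FPKM was 2144 and 1614 against 74.7 and 70.6 (log2 change -4.66, adjusted p 0.0015).

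The matrix genes Col6a2, Tgfbi, Thbs1 and Loxl1 had 0 reads in both MEF libraries. In iPSCs Col6a2, a type VI collagen chain, held 15 and 8 reads, Tgfbi, a matrix protein induced by TGF-beta, 19 and 6, Thbs1, a thrombospondin, 15 and 5, and Loxl1, an enzyme that cross-links elastin, 18 and 6. From -100 to 0 bp Tgfbi and Thbs1 had no read in any library, so their closing rests on calls outside the narrower window. Col6a2 had only the 15 reads of iPSC replicate 1 there and Loxl1 only the 6 of iPSC replicate 2. The closing of these last genes thus rests on different positions in the iPSC libraries, and so does that of Thbs1, with calls at -105 and 28 bp. The expression call of Col6a2 was lost without either iPSC library. Tgfbi expression fell by 2.23 on the log2 scale (limma adjusted p 0.031), a call that was lost without MEF replicate 2 (-1.36) and without either iPSC library (-2.08 and -2.38). The contractile genes Tagln and Acta2 were closed by a smaller margin, with levels of 0.829, 0.128, 1.32 and 2.18 and of 0.737, 0.754, 2.60 and 1.07. Their FPKM fell from 1807 and 3183 to 19.9 and 43.9 and from 5762 and 9151 to 35.4 and 63.2. Tagln was no longer closed after the GC correction or centring, and Acta2 not against a flank from 1 to 2 kb downstream.

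Mmp3, a matrix protease, was the 1 fibroblast gene opened and the 1 called higher, with levels of 1.24, 1.14, 1.12 and 1.08 that span 0.02 on the log2 scale between the closest libraries, and its expression call (log2 change 2.80) was lost without iPSC replicate 2 (1.25). Of the other fibroblast genes, Tgfb1 (levels 0.737, 0.191, 0.686 and 0.829) and Inhba (1.24, 0.191, 0.8 and 1.32) overlapped, and Vcam1 had too few reads (0, 3, 5 and 2). At the 8 closed promoters no H3K4me3 change passed the test, for example a log2 change of -0.20 at Col1a2 (edgeR adjusted p 0.80) and of 0.07 at Tgfbi (0.94).

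**Figure D5:**
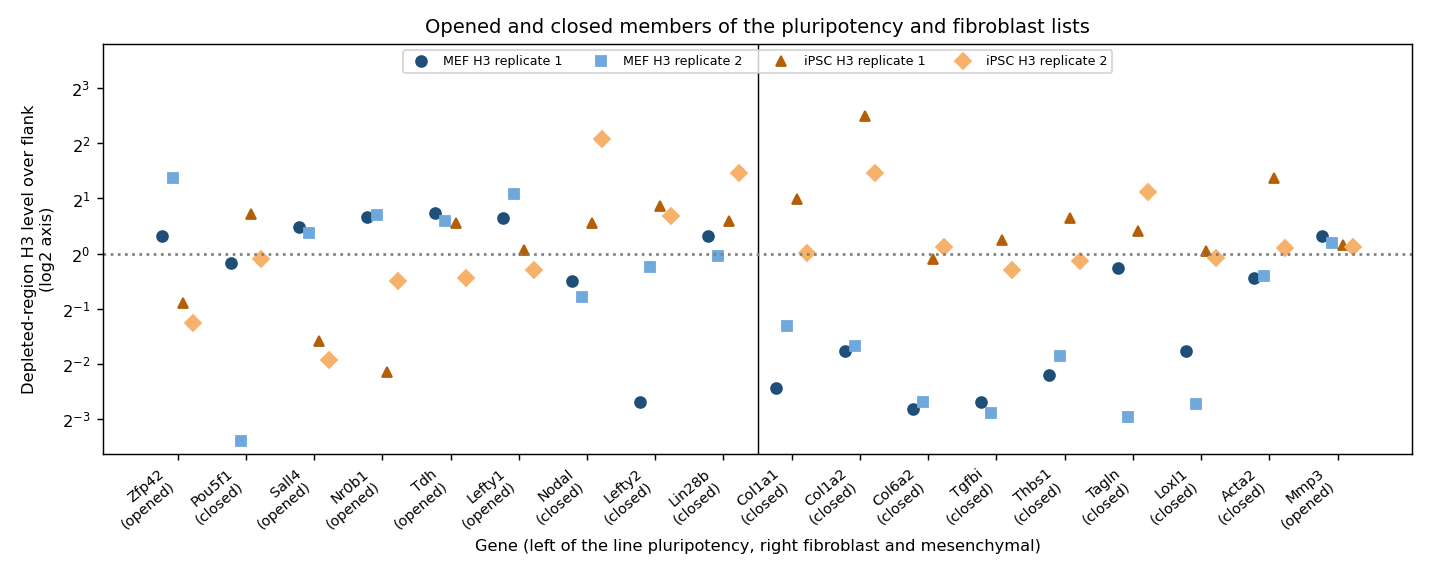
Depleted-region H3 level over the flank (y axis, log2 axis, with 1 read added to the depleted region and 5 to the flank) of the opened and closed members of the pluripotency list (left of the line) and of the fibroblast and mesenchymal list (right). Points are the 4 H3 libraries. At Col1a2, Col6a2, Tgfbi, Thbs1 and Loxl1 the MEF libraries reach at most 0.311 and the iPSC libraries at least 0.81, and at Sall4, Zfp42 and Nr0b1 both iPSC libraries lie below both MEF libraries.

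Epithelial and germline genes, the other groups that rise in reprogramming, gave no common direction. Of 28 epithelial genes 20 were called higher and 1 lower, yet of 21 with enough reads 1 was opened and 1 closed (9.06% and 24.9% of all 7628). Cldn6, a claudin of tight junctions, was opened with 10, 10, 0 and 3 reads (levels 2.28, 1.77, 0.138 and 0.995) and Epcam, an adhesion molecule, closed by 0.03 on the log2 scale. The summed epithelial level was 0.802 and 0.847 in MEFs but 1.48 and 0.410 in iPSCs, which lie on both sides. Of 25 germline genes 20 were called higher and none lower, and of 19 with enough reads 2 were opened and 5 closed, near the shares over all promoters. Tdrd12, a Tudor protein of the piRNA pathway, lost its call at -7 and -20 bp, with 9, 15, 0 and 0 reads, and its FPKM went from 0 and 0 to 9.06 and 7.35. Stra8, which is needed to enter meiosis, gained reads, with 0, 0, 14 and 6, although its FPKM rose from 0 and 0 to 77.1 and 80.7. The iPSC calls of Stra8 lay at different positions, -135 and 39 bp.

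Marker genes of macrophages and endothelium, cells that a MEF culture could hold, were summed at 44.5 and 29.8 FPKM in MEFs and 10.6 and 63.0 in iPSCs, and none of the 7 tested was called. Without MEF replicate 2, Fcer1g and Lyz2 were called lower (log2 change -2.29 and -2.19, limma adjusted p 0.00128 and 0.000765), and Fcer1g also without iPSC replicate 2 (adjusted p 0.0377). Of 8 with enough reads 3 were closed (Emr1, Fcer1g and Lyz2) and none opened (24.9% and 9.06% of all 7628), Lyz2 not after centring and Emr1 not against the downstream flank. Over the 11 genes the level was 0.763 and 1.18 in MEFs and 2.73 and 1.61 in iPSCs, and relative to uncalled genes 2.37 and 3.34 against 4.94 and 5.2. The fibroblast genes themselves were summed at 958 and 1366 FPKM in iPSCs against 23550 and 35840 in MEFs, and what part of the iPSC value came from feeder cells was not tested.

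Gene families outside the reprogramming lists were counted in the same way. Of 1108 olfactory receptor genes, of which 2 were expressed enough to be tested, 528 had enough reads, of which 94 were opened and 77 closed (9.06% and 24.9% of all 7628), and their level was 1.03 and 1.04 in MEFs and 1.09 and 1.01 in iPSCs. The 80 ribosomal protein genes, among the most active of all, had the emptiest promoters of the lists, at 0.215 and 0.258 in MEFs and 0.184 and 0.159 in iPSCs, and only 4 had enough reads. Relative to uncalled genes they stood at 0.67 and 0.732 in MEFs and at 0.333 and 0.513 in iPSCs, without overlap, and 3 were called higher and 1 lower in expression. Of 39 Hox genes, which pattern the body axis, 23 were called lower in expression and 1 higher, while of 22 with enough reads 4 were opened and 5 closed. The summed Hox level overlapped, at 0.749 and 0.839 in MEFs and 0.859 and 0.677 in iPSCs. Relative to uncalled genes it was 2.33 and 2.38 against 1.56 and 2.19, lower in both iPSC libraries. Over the 23 Hox genes called lower in expression the relative level overlapped, at 2.38 and 2.11 against 1.16 and 2.12.

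Promoters were also named by size of the difference alone. Among the 736 with a mean of at least 15 reads, 23 were opened and 240 closed. This mean was taken over the raw reads of the 4 libraries. In the depleted regions iPSC replicate 1 held 166689 reads, against 60776 and 78876 in MEFs and 66232 in iPSC replicate 2. A promoter could therefore pass through its reads in iPSC replicate 1, which favours closed promoters. The excess of closed over opened promoters can partly follow from this minimum and is read in no direction. The 10 most opened of the 23 were Slc25a22, a mitochondrial glutamate carrier, the olfactory receptor Olfr187, Capn11, Grm4, Fcnb, Psg29, Gm12253, C030030A07Rik, Tspo2 and Slc34a3. At Slc25a22 the level was 4.35 and 2.49 in MEFs and 0.919 and 0.893 in iPSCs, with 20, 13, 28 and 6 reads, so replicate 1 of the iPSCs had more reads but a flank of 152. Of the 23, 4 had a gene tested for expression and 0 were called, where 20.2% of the 188 tested at promoters of this depth were higher and 10.1% lower. Apart from Slc25a22 the 10 genes were below 1 FPKM in all 4 libraries. At Capn11, Gm12253, C030030A07Rik and Slc34a3 the order was lost against the downstream flank. From -100 to 0 bp Slc25a22, Olfr187, Grm4, Fcnb and Gm12253 had too few reads to be judged. In that window the order was lost at Psg29, C030030A07Rik and Tspo2, where the mean log2 difference (iPSC minus MEF) was 1.31, 1.47 and -0.38.

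The 10 most closed were Fxyd3, Hsf5, Adamts12, Isx, Ptgis, Atp2a1, Kbtbd11, Fbrs, Btc and Patl2. Fxyd3, a regulator of the sodium pump, had 0, 0, 52 and 16 reads in the depleted region and 32, 41, 119 and 51 in the flank, with the iPSC calls at -15 and -13 bp. Hsf5, a heat shock factor of the germline, had 2, 0, 57 and 14 reads, and Adamts12, a matrix protease, 1, 0, 59 and 8. Adamts12 fell from 10.3 and 0.923 FPKM to 0.0721 and 0.231 (limma adjusted p 0.047) and Kbtbd11 rose from 0.0138 and 0.0107 to 1.55 and 0.898 (adjusted p 0.035). Without iPSC replicate 1 or 2 both calls were lost, at log2 changes of -1.17 and -2.88 for Adamts12 and 0.99 and 1.25 for Kbtbd11, and that of Kbtbd11 also without MEF replicate 1 (0.93). In all 10 the reads of iPSC replicate 1 exceeded those of replicate 2, by 33 to 19 at Patl2 and 63 to 2 at Kbtbd11. All 10 reached the minimum of 15 reads only through iPSC replicate 1, most of all Kbtbd11, with 0, 0, 63 and 2 reads.

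Of the 240 closed promoters with at least 15 reads, 62 had a gene tested for expression, of which 12 were called higher and 11 lower (19.4% and 17.7%). Over all 736 promoters of that depth 188 were tested and 20.2% were higher and 10.1% lower. Besides Kbtbd11, the most closed of the first were Rims3, Lgals4, Gigyf1 and Pla2g1b. Pla2g1b, a secreted phospholipase, had levels of 1.71, 1.74, 3.25 and 2.39, a filled promoter in every library, while its FPKM went from 0 and 0 to 107.9 and 71.1. Besides Adamts12, the most closed of the second were Cnrip1, Wisp2, Cd72 and Gnb5. Wisp2, a secreted factor of the CCN family, had levels of 0.622, 0.853, 2.55 and 1.66, and its FPKM went from 18.3 and 169.8 to 0.96 and 0.934. From -100 to 0 bp the closing was lost at Wisp2 and Cd72 (mean log2 difference 0.53 and -0.09), against the downstream flank at Gigyf1 and Gnb5 (0.33 and 0.28), and after the GC correction at Lgals4 (0.34). Of these 8 genes Rims3 and Pla2g1b kept their expression call without any 1 library.

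With fewer reads allowed, a choice made after the values were seen, the most opened promoters of genes called higher were those of Nlrp4f, Pm20d1, Tdrd12, Sall4 and Ankrd6. Of these, Nlrp4f, Pm20d1 and Tdrd12 had no read in either iPSC library and were kept through their MEF reads. Nlrp4f, of a family of oocyte NLR proteins, had 12, 10, 0 and 0 reads with MEF calls at -108 and -113 bp, and its FPKM rose from 0 and 0 to 2.13 and 1.80. The most closed promoters of genes called lower were those of Upk1b, C530008M17Rik, Col1a2, Naaa and Smpd1. Each of these had no read in either MEF library and was kept through its iPSC reads, so its margin depends on the 1 read added. Upk1b, a uroplakin, had 0, 0, 32 and 9 reads with calls at -13 and -18 bp, and its FPKM fell from 1.66 and 5.00 to 0.0918 and 0.364. Smpd1, the acid sphingomyelinase, had 0, 0, 40 and 4 reads and fell from 21.7 and 41.1 to 5.65 and 5.40 FPKM. Of the 60 genes named here with an expression call, 30 lost it when 1 library was left out, among them Pm20d1, Ankrd6, Upk1b, C530008M17Rik, Naaa and Smpd1, and of the genes given below Rgs11, Ston2, Mrvi1, Ereg, Sgms2 and Flrt2.

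Some promoters moved against the direction of expression. Rgs11, Actn3, Pou2f2, Stra8 and Ston2 were the most closed of the 98 closed promoters whose genes were called higher, with 2.58 to 3.16 on the log2 scale between the closest libraries, against 3.02 to 3.87 at the 5 most closed whose genes were called lower. These closed promoters of both kinds had no read in either MEF library, so their margins depend on the 1 read added to the depleted region. Pou2f2, which encodes the octamer factor Oct2, had 0, 0, 43 and 6 reads, and its FPKM rose from 0.184 and 0.0474 to 3.81 and 2.79. Mrvi1, Ereg, Sgms2, Myh11 and Flrt2 were the most opened of the 24 opened promoters whose genes were called lower, with 0.79 to 1.16 between the closest libraries, against 1.9 to 3.75 at the 5 most opened whose genes were called higher. The compared sets were larger, with 217 closed promoters of genes called lower and 61 opened ones of genes called higher. Extremes of a larger set lie further out, so these ranges do not show which kind of promoter moved more. Myh11, the smooth muscle myosin heavy chain, had 7, 14, 13 and 0 reads and levels of 1.21, 2.02, 0.683 and 0.146, and fell from 7.02 and 11.8 to 0.0902 and 0.0899 FPKM. Against the downstream flank its libraries overlapped (mean log2 difference -1.76).

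Opened and closed promoters differed in base composition. Of the opened 9.41% were CpG-rich and of the closed 27.3%, against 22.3% of all 7628 and 48.8% of all start sites. Of the opened 36.8% belonged to genes listed at 0 FPKM in both cell types and of the closed 22.1%, against 1981 of the 7628. After the GC correction this order was reversed, with 23.6% of opened and 27.3% of closed. After the GC correction 22.5% of opened and 22.7% of closed promoters were CpG-rich. The correction centres each library within classes of GC content, so nearly equal shares follow by construction. The cause of the difference in base composition was not tested.

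The histone marks gave a measure from other libraries. H3K4me3, a mark of active promoters, was called higher in iPSCs within 500 bp of 814 of 14276 start sites (5.7%) and lower at 130 (0.911%) by edgeR, but DESeq2 called 2 and 0. Among opened promoters 45 of 280 tested were higher (16.1%) and 0 lower, among closed ones 163 of 1214 (13.4%) and 5, and among all 7628 promoters 652 of 4424 (14.7%) and 28, so the shares of opened and closed promoters lay near the background. The median log2 change was 0.82 at opened, 0.35 at closed and 0.44 at all promoters tested. H3K27me3, a mark of Polycomb repression, was called higher at 70 of 3680 (1.9%) and lower at 25 (0.679%), and DESeq2 called 0 of either. At opened promoters 3 of 251 were higher and 7 lower, and at closed promoters 12 of 770 higher and 3 lower.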

How the data were processed

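H3, H3K4me3 and H3K27me3 MNase ChIP-seq and RNA-seq of MEFs and iPSCs (2 libraries each) were used, with pre-iPSC H3 for comparison. Per the labels and the methods of the study, the authors aligned ChIP-seq reads to mm9 with Bowtie 1.0.1, kept unique reads with limited duplicates and located nucleosomes by means of GeneTrack. The deposited files give the read count of each called nucleosome and its fuzziness, a score of the spread of read positions in bp, which was not used in a result. Reads outside calls were not used. FPKM values were deposited by the authors from TopHat2 2.0.4 and Cufflinks 2.0.2 in 2 tables, 1 for each replicate.

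Calls of 147 bp were counted at their dyad, 73 bp after the call start. Single promoters were compared after adding 1 read to the depleted region and 5 to the flank, and groups of genes by summed reads. Ratios equal in 2 libraries counted as overlapping. Depleted-region and flank counts were tested together by edgeR 4.0.16 (library, region and region by cell type), marks within 500 bp by edgeR after filterByExpr and TMM, with DESeq2 1.42.0 beside both. FPKM were tested by limma 3.58.1 (trend) on log2(FPKM + 1) over 6 libraries (pre-iPSCs included) with the table as a term, where the mean FPKM reached 0.5, so fold changes of weakly expressed genes are understated. All p-values were adjusted over all features tested by Benjamini-Hochberg. Tests were checked on simulated counts, where the depleted-region test at the observed spread recovered almost none of the planted changes. The study calls its replicates biological, the clone behind each library is not given in the labels, and p-values measure the spread between these samples.

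The genes named are a fixed set (Pou5f1, Sox2, Klf4, Myc, Nanog, Zfp42, Dppa3, Tcfcp2l1, Ddx4, Trap1a, Col1a1, Tgfb1, Vcam1 and Inhba), the 10 most opened and 10 most closed promoters of at least 15 reads, the 5 most so with a called expression change in each direction, and 3 each of the pluripotency and fibroblast lists. Other list members, and the genes named without a minimum of 15 reads, were chosen after their values were seen. No opened promoter of at least 15 reads had a called expression change. Members, lists and rule were chosen with earlier results of these data known. Scripts ran in Python 3.11.15 (pandas 2.3.3, numpy 2.4.6) and R 4.3.3.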

Additional observations from a re-analysis of the deposited data

How the results depend on the processing

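With 2 libraries a cell type, leaving out 1 loosens the rule by construction. Opened promoters then numbered 1379 to 2539 and closed ones 2539 to 4714 (691 and 1902 with all). From -100 to 0 bp 272 were opened and 765 closed, of 3145 with enough reads, and without the filter 2969 and 3285. Centring gave 1284 opened and the GC correction 1278. Without 1 library, 21.5 to 25.8% of opened genes were called higher and 13.8 to 18.5% lower, and 12.4 to 14.6% of closed genes were called higher. The edgeR test of the depleted region called 2 promoters higher from -100 to 0 bp, Pou5f1 and 4931408C20Rik, and 1 lower without the filter, Sfi1. Lefty1 turned to 2.91 (log2, iPSC minus MEF) from -100 to 0 bp. The quotient of genes higher over lower, iPSC minus MEF, was -0.488, and -0.524 to -0.452 without 1 library. It was -0.544 with calls of at least 2 reads, -0.304 with the downstream flank and -0.369 in CpG-rich promoters. All alternatives for this quotient, the GC correction of the expression shares and the crossed block were chosen after seeing the data. The median log2 level differed by -0.005 to 0.729 without 1 library. Expression calls were 498 to 1437 higher and 619 to 2298 lower without 1 library. H3K4me3 gave 74 to 312 higher and 10 to 54 lower without 1 library, and 2 and 0 by DESeq2. H3K27me3 gave 2 to 19 and 3 to 11 without 1 library, 0 and 0 by DESeq2, and 107 lower without the filter. The causes were not tested. Deviations matched by replicate number were not positively correlated (-0.025 for H3 levels, -0.026 and -0.037 for the marks, -0.205 for expression). The H3 value is over the 7628 promoters chosen on the same reads. Replicate 1 of iPSCs and of pre-iPSCs were both high in H3 level, and whether replicate number marks a batch was not tested. The replicate block left 0 depleted-region calls and gave 38 H3K27me3 promoters lower. A crossed replicate block gave 1407 genes higher and 2204 lower.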

Other observations

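The remaining fixed genes had few reads in the depleted region. Klf4, a reprogramming factor expressed in both cell types, had 0, 0, 0 and 1 reads, and Myc had 1, 4, 7 and 1. Tcfcp2l1 had 2, 2, 4 and 0, Ddx4, a germ cell helicase, 2, 2, 0 and 4, and Trap1a 9, 0, 1 and 3. All are in the order MEF replicates 1 and 2 and iPSC replicates 1 and 2, and none reached the minimum of reads.

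At Pou5f1 the MEF libraries differed in the marks too. The upstream flank held 59 and 5 H3K4me3 reads in MEF replicates 1 and 2 (median of all start sites 7 in both) and 155 and 121 in iPSCs. It held 61 and 21 H3K27me3 reads in MEFs (medians 5 and 6) and 20 in either iPSC library (median 6). In pre-iPSCs the H3 flank held 1786 and 417 reads, 52.5 and 16.0 times the median of the same library. The cause was not tested.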
